A study of Mus musculus with 6 samples.

Results

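The genes described here are those for the translation initiation, elongation and release factors of the mouse. They were taken from the deposited table by symbol, as every row whose symbol begins with Eif1 to Eif6, Eef1 or Eef2, or is Etf1, Gspt1 or Gspt2. The Y-linked Eif2s3y and the eIF2 kinase genes were left out. Of 73 rows matching the pattern, 68 remained, out of 17348 genes in the table. They comprise 50 initiation factor genes, 15 elongation factor genes and 3 release factor genes, with a few regulators and modifying enzymes among them that carry the name of the factor they act on.

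Initiation factors bring the initiator tRNA and the small ribosomal subunit to the mRNA cap, scan to the start codon and join the large subunit. Elongation factors then deliver aminoacyl-tRNAs to the ribosome and move it along the mRNA, and release factors free the finished protein at the stop codon. Several of the mRNAs for these proteins, the elongation factor mRNAs in particular, begin with a run of pyrimidines, the 5′ terminal oligopyrimidine (TOP) motif, which ties their translation to mTOR signaling. In the embryonic cortex, proliferating progenitors lie beside newborn neurons that grow axons and dendrites, and both depend on protein synthesis.

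The libraries came from cortices of mouse embryos at E13.5 of gestation, 3 from the Ybx1 conditional knockout (cKO) and 3 from embryos labelled WT. The cKO carried Nestin-Cre and floxed Ybx1 alleles (Nestin-Cre, Ybx1 fl/fl), and the Cre removed a block of Ybx1 exons in cells of the nervous system. In which cells of the tissue Ybx1 remained was not measured in these libraries. The study calls the WT embryos wild type control littermates and elsewhere defines its controls as Ybx1 fl/fl without Cre, so which floxed alleles these embryos carried is not given in the sources used here. Nothing states that the libraries were single animals, and p-values measure only the spread between these libraries. Ybx1 encodes a cold-shock domain protein that binds RNA, including mRNA bearing 5-methylcytosine.

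Each library held 15907491 to 16282929 estimated counts, and 2.11% to 2.56% of these fell on the 68 genes. Values per library are counts scaled to the library total with TMM factors (CPM), levels of different genes are compared only in TPM, a share of transcripts that allows for transcript length. The test was the quasi-likelihood test of edgeR, adjusted after Benjamini and Hochberg over the 13340 genes tested. The deleted gene, Ybx1, stood at 1021, 528 and 1220 CPM in WT replicates 1 to 3 and at 83.1, 117 and 147 CPM in the cKO. Its log2 fold change was -3.00 (SE 0.33, edgeR, unadjusted p = 1.93e-05, adjusted p = 0.128), and the library labelled WT replicate 2 held the lowest WT level. Markers of radial glia and cortical neurons were present in all libraries, and cKO replicate 3 also held mRNAs of epidermis (254 CPM summed over 7 markers, against 9.3 to 11.0 in the others) and of mesenchyme and meninges (547 CPM over 8 markers, against 9.2 to 18.1). Interneuron markers, 10 genes, summed to 157, 150 and 211 CPM in WT and to 227, 243 and 221 CPM in the cKO without overlap, and 6 of the 9 tested had higher values in cKO at an unadjusted p under 0.05. Whether any of these bears on a translation factor was not tested, and the values without that library are given below where they matter. In bulk tissue, fewer cells of a type and less RNA per cell cannot be told apart.

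For the TOP motif named above, the annotated start regions of some of these genes are given here. The 5′ ends of the mRNAs themselves were not measured. RefSeq (GRCm38.p6) gave annotated starts for 50 of the 68 genes, 64 starts in all, with Eef1g not among them. Each line shows 15 bases before the start in lower case and 15 bases from the first transcribed base onward in capitals, 5′ to 3′ on the gene's strand. Eef2 is shown for its lower values in cKO, Eef1a1 and Eef1b2 as other core elongation factor genes, Eif4ebp2 as the other gene with lower values in cKO, and Eif3f and Eif2s3x because only their starts among the 64 were a C followed by at least 4 bases that are each C or T.
Eef2, chr10:81176616-81176645, plus strand: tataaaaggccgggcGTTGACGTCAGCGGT
Eef1a1, chr9:78481710-78481739, minus strand: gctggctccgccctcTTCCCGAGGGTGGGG
Eef1b2, chr1:63176816-63176845, plus strand: tggacctgcagttccGCCGGAAGTAGCCGA
Eif4ebp2, chr10:61452655-61452684, minus strand: ggtatcgcagcgggaCGACCGGGCGAGAGC
Eif3f, chr7:108934400-108934429, plus strand: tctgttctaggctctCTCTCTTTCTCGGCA
Eif2s3x, chrX:94212637-94212666, minus strand: ctgccgagcattttcCTTTTCTCTCCGAGC
The 2 starts are 3.12% of the 64, against 2.51% of 32851 promoters of all genes. When such a run could begin up to 5 bases to either side, on the gene's strand, it was found at 11 starts (17.2%), against 18.3% of all promoters. Counted by gene, 10 of the 50 (20%) held such a run, against 21.2% of 27025 genes. Among the 11 elongation factor genes with a start, 1 held it (9.09%), and 11 genes are too few for a comparison. That gene was Eef1a1, with its cctcttccc stretch across the start. A run that is absent here says only that these letters are not at the annotated start.

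Transcripts for these genes made up a large and uneven part of the transcriptome. In WT, the 50 initiation factor genes took 1.11%, 1.15% and 1.13% of all TPM, and the 15 elongation factor genes took 1.35%, 1.56% and 1.53%. Eef1a1, which encodes the GTPase that carries aminoacyl-tRNA to the ribosome, alone held 72.6% to 77.4% of the elongation factor TPM in the 6 libraries. It was the most abundant of all members at 11114 ± 1141 TPM in WT (SD, n = 3). Eef2, the GTPase that moves the ribosome along the mRNA, followed at 1792 ± 126 TPM, Eif4a1, the RNA helicase of the cap-binding complex, at 1469 ± 37.8 TPM, Eef1g, the gamma subunit of the exchange complex, at 1077 ± 32.6 TPM and Eif5a at 975 ± 31.2 TPM. Eef1g and Eif5a lay in neighbouring places in WT and in reversed order in the cKO, at 845 ± 73.6 and 1077 ± 60.3 TPM. Over all libraries, 4 members averaged above 1000 TPM and 34 above 100 TPM.

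In the cKO, the initiation factors held 1.12%, 1.18% and 1.14% of TPM, overlapping with the WT shares, with means of 1.13% ± 0.0195 in WT and 1.15% ± 0.0326 in the cKO (SD, n = 3). The elongation factors held 1.21%, 1.37% and 1.39%, with means of 1.48% ± 0.111 in WT and 1.33% ± 0.0982 in the cKO, so the cKO mean was 89.5% of WT and the groups overlapped. With Eef1a1 left out, the other 14 elongation factor genes held 0.372%, 0.361% and 0.376% in WT and 0.287%, 0.310% and 0.318% in the cKO, where the groups did not overlap. The difference in that sum lay in Eef2 and Eef1g. Without them and Eef1a1, the remaining 12 genes held 0.0825% ± 0.00767 in WT and 0.0812% ± 0.00594 in the cKO. These sums describe the libraries and were not tested, and leaving out Eef1a1 or other genes was chosen after the values were seen. Eef1a1 and the elongation sum were lowest in replicate 1 of both genotypes.

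**Figure D1:**
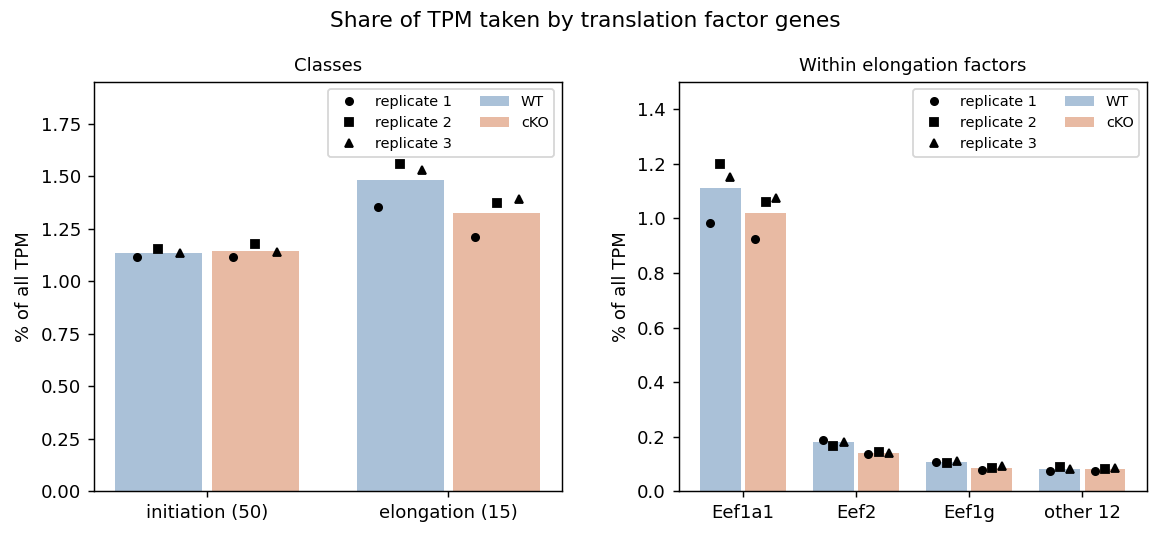
Share of all TPM (%, vertical axis from 0) taken by initiation and elongation factor genes (left) and by single elongation factor genes and the other 12 together (right), with bars for the mean of 3 libraries per genotype and points for single libraries. Initiation shares lay between 1.11% and 1.18% in both genotypes, and the points of Eef2 and Eef1g in the cKO lay below those in WT.

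Of the 68 genes, 65 had enough counts to be tested. The others were Eif4e1b, a germ-cell cap-binding protein gene, with 1 count in a single library, Eef1akmt3 with 3 counts in a single library, and the read-through gene Eef1akmt4-ece2 with 16 counts in a single library. None of the 65 had an adjusted p under 0.05 in edgeR (adjusted p = 0.99995 for each), nor did any of the 13340 genes, for a background of 0% called. The study itself reported up- and downregulated genes between these groups at E13.5. Its methods name no test or threshold for those calls, so they are not set beside the values here. At an unadjusted p under 0.05, 3 members had lower values in cKO, Eef2, Eef1g and Eif4ebp2, which is 4.62% against a background of 1.81% of all genes. Another, Eif6, had higher values, which is 1.54% against 1.75%. DESeq2 called 1 member at an adjusted p under 0.05, Eef2 (adjusted p = 0.0110), out of 4 of all genes (0.03%). With WT replicate 2 and cKO replicate 3 both left out, 2 members, Eef2 and Eef1g, were lower and 1, Eif1b, was higher at an unadjusted p under 0.05, which is 3.08% and 1.54% against 1.06% and 0.787% of all genes.

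Among initiation factors, 24 of 49 tested genes had a log2 fold change above 0 and 25 below, with a median of -0.002, and among elongation factors 5 of 13 were above and 8 below, with a median of -0.047. The median over all genes tested was 0.002. For the 6 core elongation factor subunits the median was -0.15, with 5 of 6 below 0, against 6566 of all 13340 genes tested. By library, their median deviation from each gene's log2 mean was -0.029, 0.174 and 0.117 in WT and -0.263, -0.022 and -0.020 in the cKO. These groups overlapped, since WT replicate 1 was below cKO replicates 2 and 3. Log2 fold changes of single members lay between -0.36 and 0.26, and 67.7% of members were within 0.1 of 0, against 59.9% of all genes, whose median level of 32.5 CPM was below the 117 CPM of the members. For 59 of the 65, the 95% interval of the log2 fold change lay within 0.5 on either side of 0. The initiation factors deviated together by library. Their median deviation from each gene's mean on the log2 scale was -0.10, 0.07 and 0.00 in WT replicates 1 to 3 and -0.09, 0.07 and 0.01 in the cKO. Replicate 1 held the lowest of the 3 values of its genotype for 45 of 65 members in WT (40.4% of all genes) and for 47 of 65 in the cKO (39.6% of all genes). The same libraries had the lowest sums of 8 radial glia markers, 1809 CPM in WT replicate 1 and 1772 CPM in cKO replicate 1 against 2372 to 2629 CPM in the others, and the highest sums of 7 neuronal markers. Their part in the member values was not tested.

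**Figure D2:**
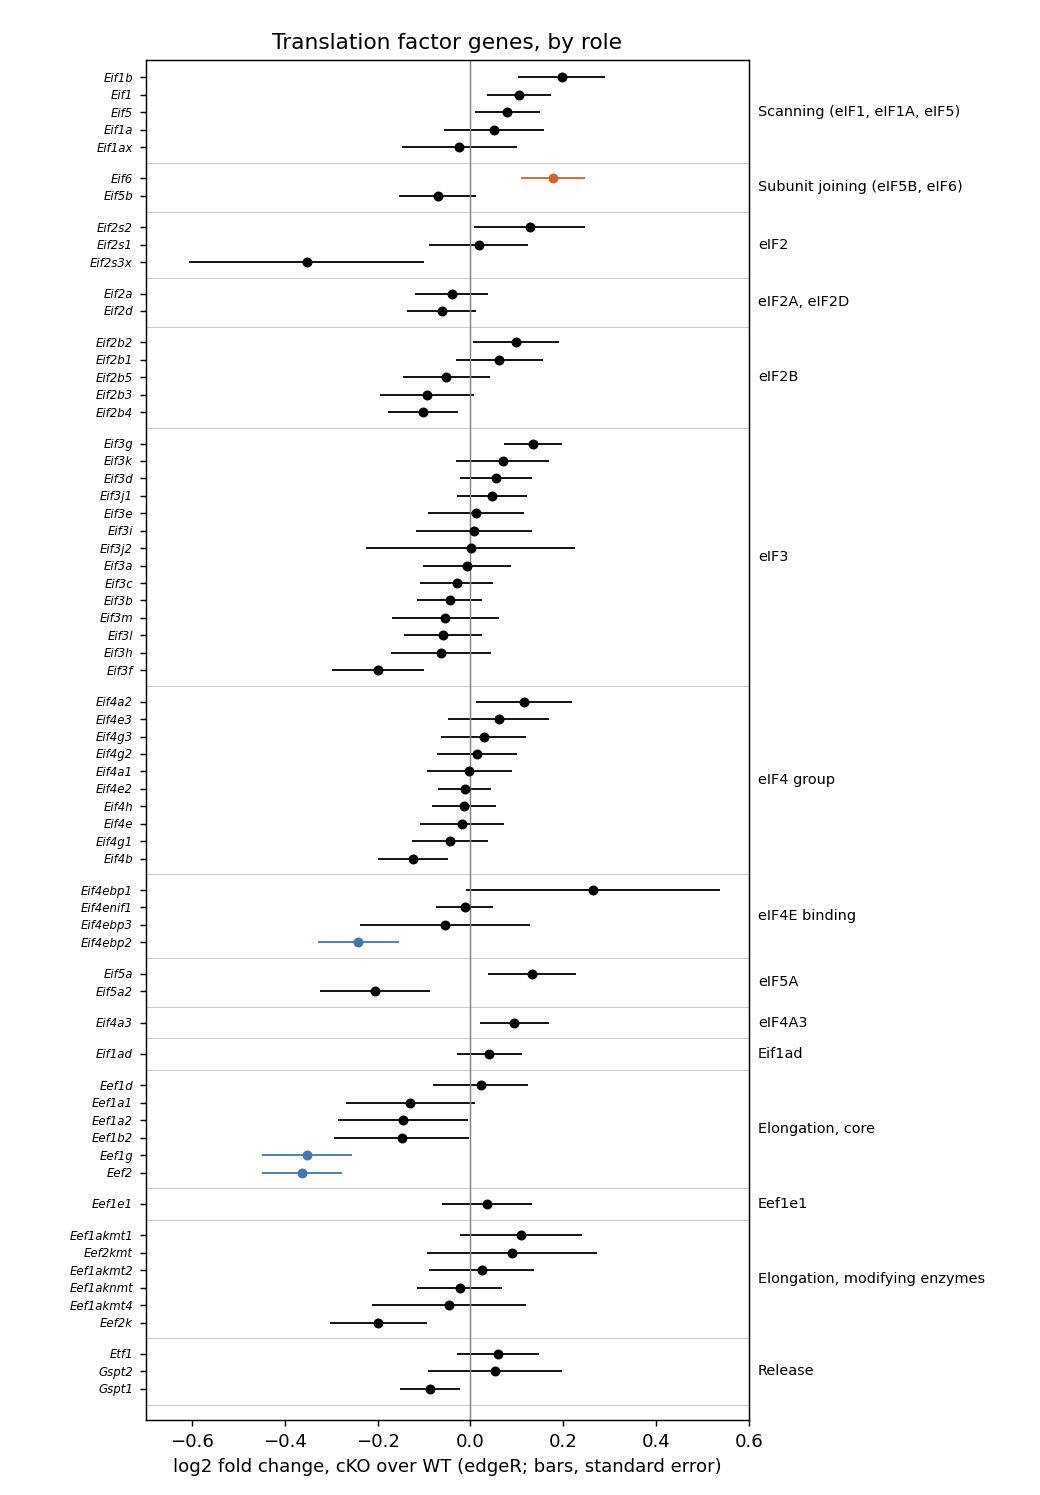
Log2 fold change of cKO over WT (horizontal axis) of the 65 tested translation factor genes, grouped by role, with bars for 1 standard error from edgeR. Blue marks unadjusted p under 0.05 with lower values in cKO (Eef2, Eef1g, Eif4ebp2), orange the same with higher values (Eif6), and black all others, most of which lie within 0.1 of 0.

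The elongation factor genes were headed by Eef2 (gene ID 13629), which stood at 2422, 2304 and 2491 CPM in WT and at 1751, 1987 and 1875 CPM in the cKO. Every cKO library was below every WT library, and the cKO mean was 77.8% of WT. The log2 fold change was -0.36 (SE 0.09, 95% interval -0.56 to -0.16, edgeR, unadjusted p = 0.00315, adjusted p = 0.99995). It stayed between -0.41 and -0.31 in all 19 alternative fits, each with an unadjusted p of at most 0.0367. Without WT replicate 2 and cKO replicate 3 together, and under each other removal of a library that was tried, its direction was the same.

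Eef1g (gene ID 67160) encodes the structural gamma subunit of the eEF1B complex, which recharges eEF1A with GTP. It stood at 621, 668 and 693 CPM in WT and at 456, 534 and 562 CPM in the cKO, again without overlap. The cKO mean was 78.3% of WT, with a log2 fold change of -0.35 (SE 0.10, 95% interval -0.58 to -0.13, edgeR, unadjusted p = 0.00709, adjusted p = 0.99995). It lay between -0.42 and -0.26 in the 19 alternatives, with unadjusted p up to 0.0353. The study chose eEF1g for follow-up on these libraries among others, so its values here are not independent evidence of its direction. Apart from sequencing, the study reported lower eEF1g mRNA in cKO cortex by RT-qPCR at this and later ages. It also reported faster decay of that mRNA in cultured cKO cells treated with actinomycin D.

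The catalytic subunits of the same complex had smaller differences. Eef1b2, the exchange factor subunit, had 184, 250 and 216 CPM in WT and 160, 213 and 213 CPM in the cKO, with overlapping groups (log2 fold change -0.15, SE 0.15). Eef1d, the other exchange subunit, had 105, 134 and 121 CPM in WT and 111, 128 and 127 CPM in the cKO, with a log2 fold change of 0.02 (SE 0.10) whose sign turned with the GC correction and with some libraries left out. Within single libraries, Eef1g made up 9.79%, 8.06% and 8.81% of the TPM of Eef1g and Eef1a1 together in WT and 7.70%, 7.35% and 7.89% in the cKO. Eef1d made up 49.99%, 50.6% and 50.7% of Eef1d and Eef1b2 together in WT and 54.5%, 53.5% and 53.1% in the cKO. The genotypes did not overlap in these shares, but they did in 2 others. Eef1g made up 81.3%, 77.4% and 80.5% of Eef1g and Eef1b2 together in WT and 78.6%, 76.3% and 77.2% in the cKO. Eef2 made up 16.2%, 12.1% and 13.7% of Eef2 and Eef1a1 together in WT and 12.8%, 11.9% and 11.54% in the cKO. The pairs were chosen after values were seen and were not tested.

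Eef1a1 itself stood at 6717, 8953 and 8425 CPM in WT and at 6419, 7901 and 7709 CPM in the cKO. The groups overlapped, since WT replicate 1 was lower than 2 of the cKO libraries, and the log2 fold change was -0.13 (SE 0.14, 95% interval -0.45 to 0.19, edgeR, unadjusted p = 0.378). Its muscle and neuron paralog Eef1a2 was scarce at this age, with 7.51 ± 0.928 TPM in WT and 6.84 ± 1.5 TPM in the cKO (SD, n = 3), which was 0.0515% to 0.0912% of both paralogs together. Its log2 fold change was -0.15 (SE 0.14). Eef1a1 has processed copies in the genome, and how the counting divided their reads is not given in the sources used here.

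Eef2k encodes the kinase that phosphorylates eEF2 and slows elongation. It had 39.8, 37.0 and 36.8 CPM in WT and 33.9, 28.7 and 36.5 CPM in the cKO, so the groups were separate by a narrow margin, which was lost with RLE size factors, library totals alone or TPM (log2 fold change -0.20, SE 0.10, edgeR, unadjusted p = 0.0942). Eef1e1, whose product sits in the multi-tRNA synthetase complex, differed by 0.04 (SE 0.10) on the log2 scale, and its sign turned under some alternatives. The 6 tested modifying enzymes, Eef2k and 5 methyltransferases that act on eEF1A or eEF2, had a median log2 fold change of 0.001, and the methyltransferases lay between -0.05 for Eef1akmt4 and 0.11 for Eef1akmt1. None of the 5 had separate groups.

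**Figure D3:**
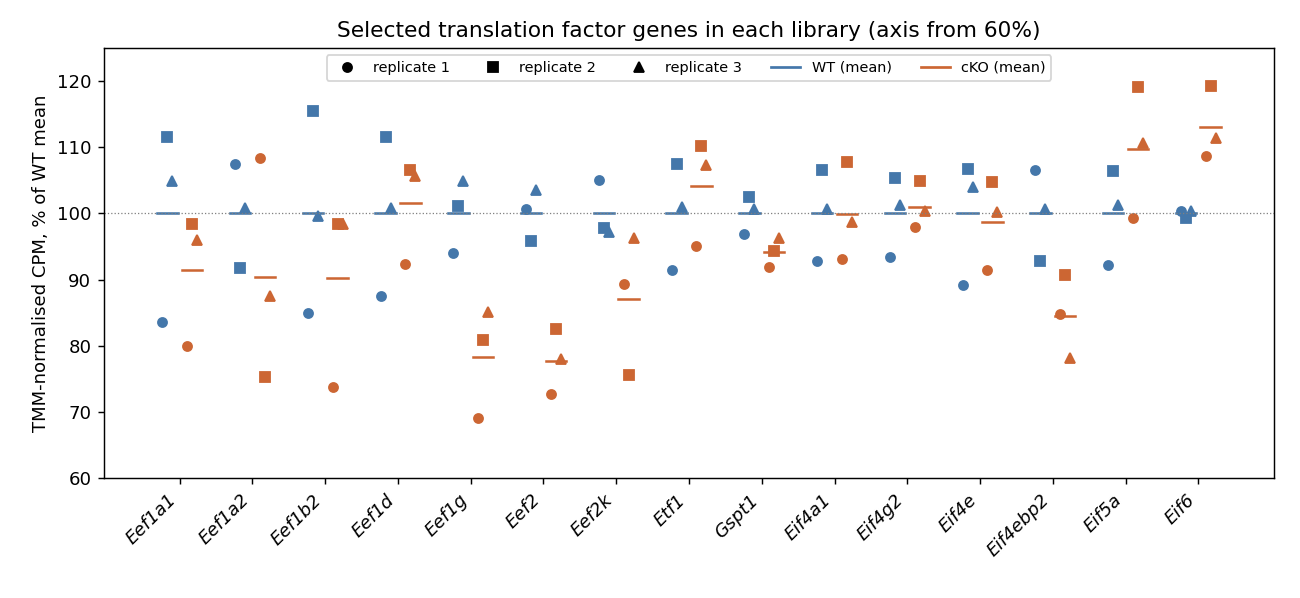
TMM-normalised CPM of 15 translation factor genes in each library, as a percentage of the WT mean of the gene (vertical axis from 60%), with lines for the mean of each genotype and a symbol for each replicate number. The cKO points of Eef2 and Eef1g lie below all WT points of the same gene, while those of Eif4a1 and Eif4g2 overlap with WT.

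The release factor genes had small differences. Etf1 encodes eRF1, which reads the stop codons, and Gspt1 and Gspt2 encode forms of its partner GTPase eRF3. Gspt1 had 285, 302 and 296 CPM in WT and 270, 278 and 283 CPM in the cKO, a narrow separation, lost with library totals alone, in which the cKO mean was 94.2% of WT (log2 fold change -0.09, SE 0.07, edgeR, unadjusted p = 0.220). Etf1 had a log2 fold change of 0.06 (SE 0.09) and Gspt2 of 0.05 (SE 0.14). Gspt2 supplied 7.23% to 10.04% of the TPM of the eRF3 pair. Its fold change turned negative without cKO replicate 1, its highest library at 10.2 CPM, and with voom weights.

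Among the initiation factors, the genes of the cap-binding complex eIF4F and its partners had log2 fold changes near 0. Eif4a1 had 1041, 1195 and 1130 CPM in WT and 1045, 1210 and 1107 CPM in the cKO, a log2 fold change of -0.002 (95% interval -0.22 to 0.21) whose sign was not stable. Eif4e, the cap-binding subunit, had a log2 fold change of -0.02 (SE 0.09), the scaffold gene Eif4g1 of -0.04 (SE 0.08) and its paralog Eif4g3 of 0.03 (SE 0.09), and each of these turned sign under at least 1 alternative. Eif4g2, a scaffold that does not bind the cap-binding subunit, had 2293 to 2585 CPM over all libraries, and its log2 fold change was 0.01 (SE 0.09), with a sign that also turned. Eif4b, which stimulates the helicase, had the lowest fold change of this group, with 389, 431 and 425 CPM in WT and 363, 394 and 385 CPM in the cKO (log2 fold change -0.12, SE 0.08, edgeR, unadjusted p = 0.141). Eif4a2, the second helicase gene, had the highest, 0.11 (SE 0.10), with cKO replicate 1 at 402 CPM and the 5 other libraries between 312 and 355 CPM.

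The eIF4E-binding proteins hold back cap-dependent initiation when mTOR is inactive. Eif4ebp2, the main form in brain, had 410, 357 and 387 CPM in WT and 326, 349 and 301 CPM in the cKO. The groups did not overlap, the cKO mean was 84.6% of WT and the log2 fold change was -0.24 (SE 0.09, 95% interval -0.44 to -0.04, edgeR, unadjusted p = 0.0244, adjusted p = 0.99995). Its unadjusted p was under 0.05 in 13 of 19 alternatives and up to 0.106 in the others, which include the fits without WT replicate 1 (0.0638), WT replicate 3 (0.0724) or cKO replicate 3 (0.0907). On TPM the groups overlapped. Eif4ebp1 was rarer, with 4.96, 8.36 and 9.0 CPM in WT and 6.18, 9.85 and 10.8 CPM in the cKO (log2 fold change 0.26, SE 0.27). Replicate 1 was the lowest of each genotype, and the log2 fold change was 0.048 without WT replicate 1, 0.10 without cKO replicate 3 and 0.48 without cKO replicate 1.

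Of the 14 genes of eIF3, the scaffold that links the small subunit to the mRNA, 7 had a log2 fold change above 0 and 7 below, with a median of -0.003. The extremes were Eif3f at -0.20 (SE 0.10, edgeR, unadjusted p = 0.0782), with 277, 238 and 273 CPM in WT and 216, 256 and 215 CPM in the cKO, and Eif3g at 0.13 (SE 0.06, edgeR, unadjusted p = 0.0659). Eif3g had 84.4, 91.7 and 88.4 CPM in WT and 95.4, 99.99 and 95.02 CPM in the cKO, without overlap. Eif3j1 and Eif3j2 are near-identical copies whose estimated counts were not whole numbers in any library, so their division between the copies is uncertain. The 5 genes of eIF2B, which recharges eIF2 with GTP, lay between -0.10 (Eif2b4) and 0.10 (Eif2b2).

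In the scanning group, which sets start codon choice, 4 of 5 genes had values above 0. Eif1b was highest, with 93.8, 104 and 107 CPM in WT and 119, 127 and 103 CPM in the cKO, where the groups overlapped (log2 fold change 0.20, SE 0.09, edgeR, unadjusted p = 0.0696). The log2 fold change of Eif1b was 0.28 without cKO replicate 3 (edgeR, unadjusted p = 0.0151) and 0.13 without cKO replicate 2 (edgeR, unadjusted p = 0.237). Eif5, the GTPase activator of eIF2, had 384, 414 and 404 CPM in WT and 415, 437 and 418 CPM in the cKO. Its groups were separated by less than 1 CPM, with a log2 fold change of 0.08 (SE 0.07).

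Eif6 encodes the factor that keeps the large ribosomal subunit from joining too early and that is needed for making that subunit. It had 47.6, 47.1 and 47.6 CPM in WT and 51.5, 56.6 and 52.8 CPM in the cKO. The cKO values were all higher, with a mean at 113% of WT and a log2 fold change of 0.18 (SE 0.07, 95% interval 0.02 to 0.34, edgeR, unadjusted p = 0.0338, adjusted p = 0.99995). Its unadjusted p was under 0.05 in 10 of 19 alternatives and up to 0.141 in the others, which include the fits without WT replicate 2 (0.0806), WT replicate 3 (0.0906), cKO replicate 2 (0.125) or cKO replicate 3 (0.0644). Eif5b, the other gene of the group named for subunit joining, had a log2 fold change of -0.07 (SE 0.08).

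eIF5A, named for initiation, also helps the ribosome form difficult peptide bonds during elongation. Eif5a had 452, 522 and 497 CPM in WT and 487, 584 and 543 CPM in the cKO, overlapping (log2 fold change 0.13, SE 0.10, edgeR, unadjusted p = 0.200), and its counts were not whole in any library. On TPM, Eif5a had 943, 1005 and 978 in WT and 1010, 1127 and 1093 in the cKO, without overlap. Its paralog Eif5a2 had 20.3, 25.3 and 22.4 CPM in WT and 17.5, 21.2 and 20.4 CPM in the cKO (log2 fold change -0.20, SE 0.12, edgeR, unadjusted p = 0.123). Eif5a2 made up 0.988%, 1.06% and 0.987% of the TPM of the pair in WT and 0.782%, 0.799% and 0.822% in the cKO, without overlap. The share was chosen after the values were seen and was not tested.

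Across the members with separate groups, 5 had all cKO libraries below all WT libraries (Eef2, Eef1g, Eef2k, Eif4ebp2 and Gspt1), which is 7.69% of the 65 against 4.83% of all genes. In 3 the cKO libraries were all above (Eif6, Eif3g and Eif5), which is 4.62% against 4.21%. Of the 5 lower ones, 3 came from the 13 tested elongation factor genes, 1 from the 3 release factor genes and 1 from the 49 initiation factor genes. The 3 higher ones were all initiation factor genes. With library totals alone, Eef2k and Gspt1 no longer separated, and the lower ones were Eef2, Eef1g and Eif4ebp2. With TPM in place of CPM the lower ones were Eef2, Eef1g, Gspt1, Eif4b and Eif5a2. The higher ones then numbered 6, Eif1, Eif3d, Eif3g, Eif5, Eif5a and Eif6. For these other scalings the share of all genes with separate groups was not computed.

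The largest standard error after that of Eif4ebp1 belonged to Eif2s3x, the X-linked gene of the gamma subunit of eIF2, which binds the initiator tRNA. It had 321, 574 and 548 CPM in WT and 303, 498 and 328 CPM in the cKO, a log2 fold change of -0.35 (SE 0.25, 95% interval -0.94 to 0.23, edgeR, unadjusted p = 0.201). Its Y-linked copy Eif2s3y, which is outside the 68 genes, had 79.0 CPM in WT replicate 1, 105 CPM in cKO replicate 1 and 64.8 CPM in cKO replicate 3, and 0 in the others, where a count of 0 allows up to 0.184 to 0.186 CPM. The libraries with Eif2s3y were those with 303 to 328 CPM of Eif2s3x. They number 1 in WT and 2 in the cKO, so the Eif2s3x comparison mixes this difference with that of genotype. The part of each was not tested. Among libraries with Eif2s3y, the Eif2s3x values were 321 CPM in WT against 303 and 328 CPM in the cKO, and among those without it, 574 and 548 CPM in WT against 498 CPM in the cKO. The sums of both genes were 400, 574 and 548 CPM in WT and 408, 498 and 393 CPM in the cKO. The other subunit genes, Eif2s1 and Eif2s2, had log2 fold changes of 0.02 (SE 0.11) and 0.13 (SE 0.12).

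**Figure D4:**
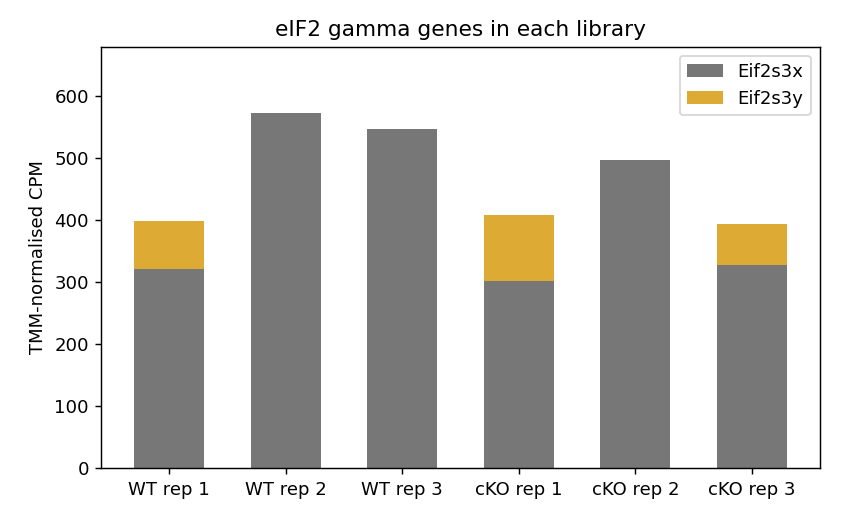
TMM-normalised CPM (vertical axis from 0) of Eif2s3x in grey and of its Y-linked copy Eif2s3y stacked in yellow, in each of the 6 libraries. The 3 libraries with Eif2s3y hold 303 to 328 CPM of Eif2s3x, and the 3 without it hold 498 to 574 CPM.

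The genes around these factors, taken from 5 lists of the pathway, had 77 tested members, of which 2 had lower and 3 higher values at an unadjusted p under 0.05 and none passed the adjusted threshold. These are 2.6% and 3.9% of the 77, against 1.81% and 1.75% of all genes, and the genes are named below only to identify them. Their median log2 fold change was 0.024. Of 31 genes of translation control, which cover the eIF2 kinases and the mTOR pathway, 1 was lower and 2 higher. They were the mTOR inhibitor Tsc1 at -0.18 (SE 0.08, edgeR, unadjusted p = 0.0417), the mTOR activator Rheb at 0.21 (SE 0.09, edgeR, unadjusted p = 0.0439) and Paip2, which restrains the poly(A)-binding protein, at 0.22 (SE 0.09, edgeR, unadjusted p = 0.0441). Of 9 genes for the modification of eIF5A and eEF2, 1 was higher, Dph6 at 0.21 (SE 0.08, edgeR, unadjusted p = 0.0364), which acts in making the diphthamide residue of eEF2. Of 22 cytosolic aminoacyl-tRNA synthetase and complex genes, 1 was lower, Qars at -0.18 (SE 0.07, edgeR, unadjusted p = 0.0384). None of the 9 mitochondrial translation factors or the 6 genes for ribosome rescue and selenocysteine insertion was under that threshold.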

How the data were processed

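RNA was measured in 6 cortex libraries at E13.5, 3 WT and 3 cKO by title. The submitters' processing notes name HISAT2 2.2.1, Bowtie2 2.4.5 and RSEM 1.3.1 with GRCm38/mm10, with no role or order, and the annotation and use of strand are not given in the sources used here. The authors deposited estimated counts per gene, not normalized for depth (10.9% of values not whole), and TPM, scaled by the authors for length and depth. FPKM and 6 columns of averages deposited beside them were not used. Counts were rounded, genes kept with filterByExpr (minimum count 10, minimum total count 15), and tested with edgeR 4.0.16 in R 4.3.3 (TMM factors 0.987 to 1.03, genotype the only term, prior degrees of freedom 3.92). Standard errors are the fold change over the square root of F. A count of 0 allows up to 3 counts, counting error only. The code was tested on simulated data.

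Members, lists and the rule for named genes were chosen with earlier results of these data known. Named are all core elongation, release, eIF4F, eIF5A and main eIF4E-binding genes, any other member with an unadjusted p under 0.05, the extremes of each role, and others as stated. Epidermal, mesenchymal and other markers were summed in CPM. Alternatives were RLE factors, library totals alone, no filter, 10 counts in every library, DESeq2 1.42.0, edgeR's exact test, limma 3.58.1 with voom weights and on log2(TPM + 1) or log2(TPM + 0.1), a replicate block, a GC correction, both, and libraries left out. Xist and genes of the mitochondrial genome are not reported here.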

Additional observations from a re-analysis of the deposited data

How the results depend on the processing

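No member passed the adjusted threshold except Eef2 in DESeq2 (1 member). The number of members lower at an unadjusted p under 0.05 (3) became 8 with the replicate block and 7 with the replicate block and GC correction (which added Eef1b2, Eef2k, Eif2s3x and Eif5a2 in both, and Eif4b in the first), while the share of all genes went from 1.81% to 4.6% and 5.36%. The number lower ranged from 2 to 5 with libraries left out, with Eef2 and Eef1g among them in each. The share of all genes lower in those fits ranged from 0.873% to 3.57%. Without cKO replicate 2 the 5 included Eif2s3x and Eif3f. The number higher (1) became 3 with library totals alone and with voom weights, 2 with either log2 TPM fit and 5 with the replicate block. The shares of all genes were then 2.4%, 4.86%, 1.85% or 1.86%, and 3.57%, against 1.75%. The number higher was 0 with DESeq2, the exact test or the GC correction (all genes 1.11%, 1.42% and 1.5%). With libraries left out it was 0 to 1 (all genes 0.787% to 4.23%). Same-numbered libraries deviated together with r = 0.41, 0.31 and -0.02 over all genes and 0.57, 0.17 and 0.14 over the members. No label ties a number to a shared litter or day, so the libraries were compared without pairing, and pairing could not be settled from these values. The members with separate groups became 3 lower and 5 higher with library totals alone, which moved the median of all genes to 0.026, and 6 higher on TPM. The share of higher genes among all genes with an unadjusted p under 0.05 was 49.2%, and 65.4% with library totals alone, 38.8% with the GC correction and 33.2% with the block added to it.

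The elongation median lay below the initiation median in every alternative tried, by 0.045 on the log2 scale in the comparison as given. All alternatives drew on the same 6 libraries, so the shared sign is not independent evidence. Within single libraries, the median elongation deviation minus that of initiation was -0.046, 0.078 and 0.058 in WT. In the cKO it was -0.030, -0.070 and 0.003, so the groups overlapped (pooled SD 0.054). The difference between the class medians was -0.15 for core subunits only. There, 8 genes, the core elongation subunits with Eif5a and Eif5a2 moved to their side, were set against 39 core initiation genes. With libraries left out the difference was -0.088 to -0.0029, nearest to 0 without cKO replicate 2. The release factor median moved to -0.026 with voom weights and ranged from -0.059 to 0.092 with libraries left out. Ybx1 passed the adjusted threshold with DESeq2 (-3.00), the exact test (-3.00), voom weights (-3.10), the replicate block (-2.95), the GC correction (-3.02), both (-2.97), without WT replicate 2 (-3.28) and without WT replicate 2 and cKO replicate 3 (-3.49), and its log2 fold change ranged from -3.49 to -2.75 with libraries left out.

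Of 437 log2 fold changes recomputed for 23 named members, 30 turned sign, in 8 genes. With library totals alone Eif4a1 was at 0.022 and Eif4e at 0.0062. With voom weights Eef1e1 was at -0.050, Gspt2 at -0.026 and Eif4a1 at 0.0078, and on log2 TPM Eif4a1 was at 0.0015 with either pseudocount. With the GC correction Eef1d was at -0.031 and Eif4g3 at -0.0065, and with the block added at -0.023 and -0.0066. With libraries left out, the ranges were -0.061 to 0.11 for Eef1d, -0.036 to 0.098 for Eef1e1, -0.028 to 0.059 for Eif4g2, -0.062 to 0.054 for Eif4a1, -0.089 to 0.042 for Eif4e, -0.025 to 0.12 for Eif4g3, -0.059 to 0.16 for Gspt2 and -0.10 to 0.021 for Eif4g1. The cause of these shifts was not tested. The filter on low counts left out 3 members, each at 0 in 5 of 6 libraries.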
